A study of Homo sapiens with 12 samples.

Results

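The regions described here are the 231 sites at which the glucocorticoid receptor NR3C1 was called in both SUPT-1 lines under prednisolone and which also lay at a STAT5B region of cells that had received no prednisolone. They were taken from the NR3C1 list of prednisolone-treated N642H cells, which held 2888 regions on chromosomes 1 to 22, X and Y. The members were chosen by these deposited calls, that is, by NR3C1 of both lines under prednisolone and STAT5B of both lines without it. A region was a member when it shared at least 1 bp with a region of the WT NR3C1 list under prednisolone and at least 1 bp with a STAT5B region of untreated N642H or untreated WT cells. NR3C1 was shared by both lines at 887 of the 2888 regions, and the members were 26.0% of these (95% interval 23.2 to 29.1, Clopper-Pearson). A STAT5B region was present in both untreated lines at 127 members, in untreated N642H cells alone at 84 and in untreated WT cells alone at 20. This split depended on the settings: it was 29, 62 and 15 members, in the same classes, when 50% of both regions had to overlap, 72, 73 and 12 at a −log10 q of at least 5, and 61, 33 and 26 with lists of equal length.

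Chromatin immunoprecipitation and sequencing (ChIP-seq) of NR3C1 and of STAT5B was done in SUPT-1, an established human T-lymphoblastic cell line. One line overexpressed STAT5B N642H, a mutant with raised activity, and the other overexpressed wild-type STAT5B (WT). Both forms were induced by doxycycline in puromycin-selected cells, which applies to every group, and the cells then received prednisolone at 250 µg/ml for 16 hours or none. The groups used here were NR3C1 in N642H cells with prednisolone, NR3C1 in WT cells with prednisolone, STAT5B in N642H cells with prednisolone, STAT5B in WT cells with prednisolone, STAT5B in untreated N642H cells and STAT5B in untreated WT cells. Each group was 1 library, so there is no replicate error, and all intervals below cover counting error over regions only. The NR3C1 lists held 2888 regions in N642H and 995 in WT cells with prednisolone. The untreated NR3C1 lists held 2 regions in each line, and none of them lay at a member. Peak lists hold no expression values, so neither the STAT5B form nor the cell type in the labels was checked against expression. Whether the NR3C1 and the STAT5B list of 1 line and treatment were called against the same input library was not given in the sources used here, and the part of a shared input in their overlap was not tested.

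NR3C1 is a nuclear receptor that moves into the nucleus when a glucocorticoid such as prednisolone binds it, and there it attaches to DNA as a dimer at palindromic sites or through other DNA-bound factors. STAT5B is a transcription factor that cytokine receptors, among them the interleukin-7 receptor of early T cells, activate through JAK kinases, and it binds DNA as a phosphorylated dimer. Glucocorticoids kill many lymphoid cells, whereas STAT5 signalling is known for keeping them alive, and the study's title places both in the question of steroid resistance in T-cell leukaemia.

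Sequence could be shown for the members whose NR3C1 summit, the base of highest pileup, fell in a promoter window of the RefSeq table (GRCh38.p14, 250 bases before to 50 after a gene's start). There were 15 such members, against 7 of the 656 NR3C1 regions of both lines without untreated STAT5B and 110 of the 647 called in N642H cells alone with untreated STAT5B. Shown are the 2 with the highest NR3C1 fold among promoters where STAT5B was called without prednisolone only, and 3 of the 7 where STAT5B was called in all 4 STAT5B lists. These 5 genes were chosen after their values were seen. The windows are RFESD at chr5:95646629-95646928 (plus strand), COPS9 at chr2:240136256-240136555 (minus strand), KMT2A at chr11:118436242-118436541 (plus strand), RPS7 at chr2:3575010-3575309 (plus strand) and RTTN at chr18:70205638-70205937 (minus strand). Each runs 5′ to 3′ in the direction of the gene, and capitals mark the NR3C1 summit of N642H cells with 10 bases to either side.
RFESD: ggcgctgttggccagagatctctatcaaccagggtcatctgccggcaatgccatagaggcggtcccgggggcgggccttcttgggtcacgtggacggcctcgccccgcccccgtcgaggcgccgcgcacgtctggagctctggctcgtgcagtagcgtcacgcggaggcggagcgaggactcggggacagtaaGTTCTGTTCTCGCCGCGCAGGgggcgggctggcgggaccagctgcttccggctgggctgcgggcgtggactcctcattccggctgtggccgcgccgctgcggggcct
COPS9: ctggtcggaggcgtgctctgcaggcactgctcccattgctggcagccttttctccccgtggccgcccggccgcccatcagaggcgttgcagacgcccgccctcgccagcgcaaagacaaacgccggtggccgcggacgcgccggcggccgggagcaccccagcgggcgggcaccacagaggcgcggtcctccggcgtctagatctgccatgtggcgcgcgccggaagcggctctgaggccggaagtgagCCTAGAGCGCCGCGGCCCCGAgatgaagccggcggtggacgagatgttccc
KMT2A: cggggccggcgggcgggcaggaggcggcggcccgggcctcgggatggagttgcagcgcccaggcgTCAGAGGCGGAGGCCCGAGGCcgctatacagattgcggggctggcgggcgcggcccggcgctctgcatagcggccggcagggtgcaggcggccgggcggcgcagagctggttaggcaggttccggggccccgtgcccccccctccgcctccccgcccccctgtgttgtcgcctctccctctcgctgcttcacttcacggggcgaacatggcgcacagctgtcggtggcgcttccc
RPS7: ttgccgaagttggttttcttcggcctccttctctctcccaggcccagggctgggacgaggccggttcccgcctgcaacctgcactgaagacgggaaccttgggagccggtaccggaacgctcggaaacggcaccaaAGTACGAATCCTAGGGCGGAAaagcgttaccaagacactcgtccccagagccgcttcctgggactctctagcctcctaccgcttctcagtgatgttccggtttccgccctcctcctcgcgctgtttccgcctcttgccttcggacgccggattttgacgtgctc
RTTN: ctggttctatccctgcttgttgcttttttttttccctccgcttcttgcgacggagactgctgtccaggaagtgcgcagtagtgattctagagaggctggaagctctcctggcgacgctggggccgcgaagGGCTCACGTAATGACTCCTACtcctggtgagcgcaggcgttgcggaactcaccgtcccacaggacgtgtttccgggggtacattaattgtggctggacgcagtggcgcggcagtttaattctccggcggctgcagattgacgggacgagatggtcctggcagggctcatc

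The values that go with these sequences are fold enrichments, the authors' own ratio of ChIP pileup to local background at the summit. At RFESD the NR3C1 fold was 28.0 in N642H cells and 23.3 in WT cells, both with prednisolone, and the 1 STAT5B region was that of untreated N642H cells at a fold of 4.64. At COPS9 the NR3C1 fold was 20.9 in N642H cells and 14.6 in WT cells, and STAT5B was called in untreated N642H cells at 5.66 and in untreated WT cells at 6.92. At both promoters the receptor folds were above the STAT5B folds.

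Untreated STAT5B folds were above the receptor folds at the promoter of KMT2A, which encodes a histone H3 lysine 4 methyltransferase rearranged in leukaemias. NR3C1 had a fold of 8.09 in N642H cells and 6.70 in WT cells, and STAT5B had 6.64 in N642H and 12 in WT cells with prednisolone, against 14.9 in N642H and 18.1 in WT cells without it. At RPS7, a gene of the small ribosomal subunit, NR3C1 had a fold of 9.26 in N642H cells and 7.72 in WT cells, and STAT5B had 8.29 in N642H and 9.84 in WT cells with prednisolone, against 12.8 in N642H and 15.7 in WT cells without it. At RTTN, which encodes rotatin, a protein of the centriole, the NR3C1 folds were 6.62 in N642H and 6.31 in WT cells. The STAT5B folds there were 6.55 in N642H and 13.8 in WT cells with prednisolone, against 8.11 in N642H and 9.59 in WT cells without it. Not every promoter in all 4 STAT5B lists had this order. At CTNNB1, named after its values were seen, NR3C1 had 12.1 in N642H and 11.6 in WT cells. Untreated STAT5B had 8.11 in N642H and 7.93 in WT cells there.

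Letters of 5 motifs were searched on both strands of the 15 promoter windows. The STAT core TTCNNNGAA was in 0 of the 15 and in 6.82% of all 21680 promoter windows of the table, and the receptor core ACANNNTGT was in 0 and 3.99%. The single arm of the receptor site, TGTTCT, was in 2 of the 15, and in 11.7% of all windows. One of these was RFESD, where the arm started at base 198 of the window, inside the capitals shown above. The other was PPP1CC, where it started at base 247. The ETS core CCGGAAG was in 3 of the 15 against 12.9% of all windows, with 2 matches in COPS9 outside the capitals, and the RUNX core TGTGGT in 2 against 11.3%. The spellings TTCNNNGAA and ACANNNTGT read the same on both strands, and TGTTCT starts with the last 3 letters of ACANNNTGT, so those 2 can share letters. The 15 windows had a median GC content of 71.3%, against 62.3% over all windows. No genome was used here, so the other members were not searched.

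NR3C1 and untreated STAT5B chose the members, so their values at the members are a description. NR3C1 fold in N642H cells ran over 3.75 at the lowest, 11.8 at the median and 114 at the highest member, and in WT cells over 3.74, 8.17 and 76.9. The pileup recovered from the deposited values was 27 fragments at the median member in N642H cells, with a range of 8 to 267, and 19 in WT cells. Untreated STAT5B fold was 3.37, 7.14 and 33.3 over the 211 members called in N642H cells, and 3.29, 6.68 and 18.1 over the 147 called in WT cells. Ranked by −log10 q, the members had a median percentile of 74.0 in the N642H NR3C1 list. The regions of the other lists that overlapped any member had median percentiles of 47.1 in the WT NR3C1 list, 78.5 in the untreated N642H STAT5B list and 69.3 in the untreated WT STAT5B list. The NR3C1 median of 11.8 lay below the 14 of the 656 regions of both lines without untreated STAT5B and above the 7.22 of the 647 regions of N642H cells alone that had untreated STAT5B.

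**Figure D1:**
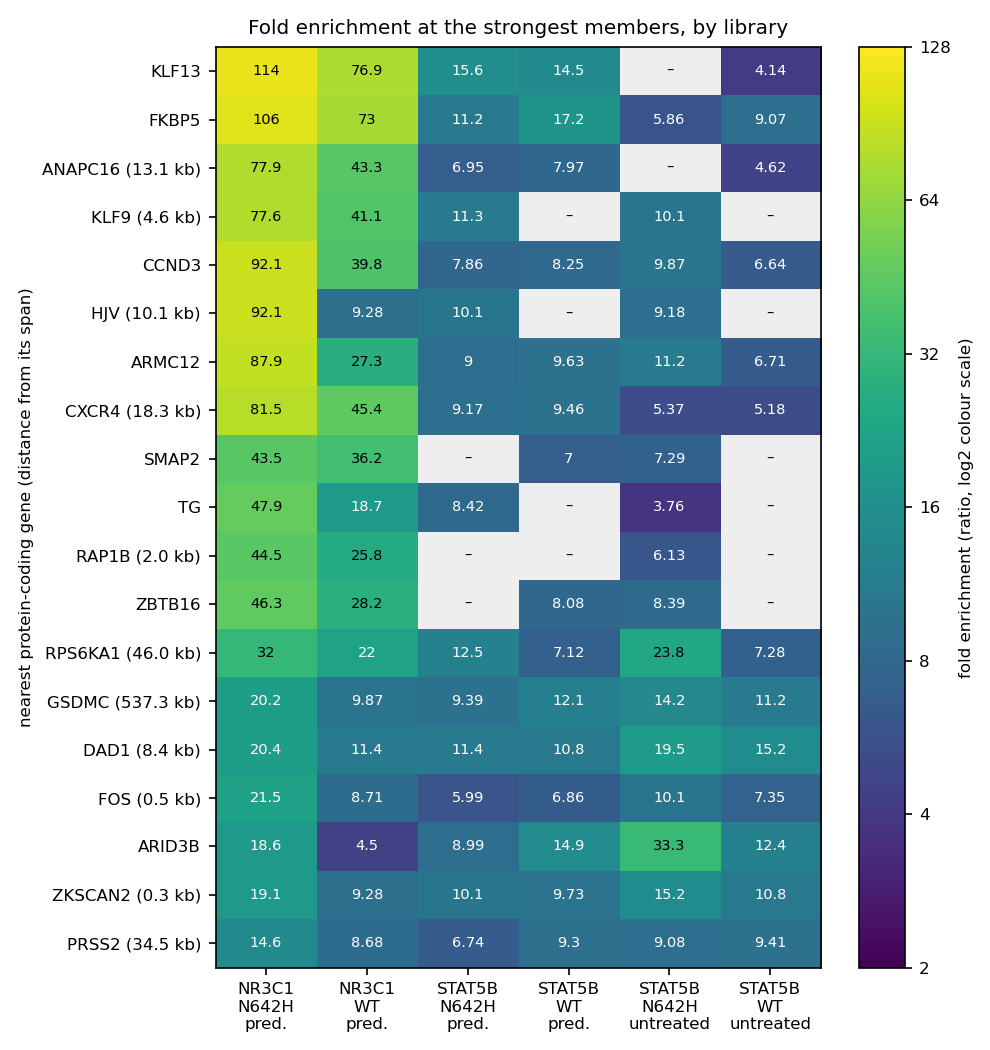
Fold enrichment (ratio, log2 colour scale) in the 6 libraries at the 12 members with the highest NR3C1 −log10 q in N642H cells and at members among the 12 highest of those with STAT5B in all 4 STAT5B lists; a dash marks a library with no called region. KLF13 and FKBP5 stand at the top with NR3C1 folds of 114 and 106 in N642H cells, and ARID3B has the highest STAT5B fold shown, 33.3 in untreated N642H cells.

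Several of the strongest members lay at genes that glucocorticoids are known to induce in lymphoid cells. The strongest was inside KLF13 (chr15:31365625-31366291, 39091 bp downstream of the listed start), a Krüppel-like zinc-finger factor. Its NR3C1 fold was 114 in N642H cells and 76.9 in WT cells, its STAT5B fold 15.6 in N642H and 14.5 in WT cells with prednisolone, and without it STAT5B was called in WT cells alone, at 4.14. KLF13 carried 3 more members. That at chr15:31326221-31326558, 426 bp before the start, had an NR3C1 fold of 27.3 in N642H cells and 12.6 in WT cells, and the other 2 had 11.9 in N642H and 8.99 in WT cells, and 8.04 in N642H and 7.96 in WT cells.

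FKBP5, the co-chaperone that lowers the hormone affinity of the receptor and is a standard glucocorticoid target, had 2 members. One covered its start site (chr6:35727768-35729000), with an NR3C1 fold of 106 in N642H cells and 73.0 in WT cells, and STAT5B folds of 11.2 in N642H and 17.2 in WT cells with prednisolone, against 5.86 in N642H and 9.07 in WT cells without it. The other lay 3450 bp upstream of the start, at one end of ARMC12 (chr6:35731533-35732411), with NR3C1 folds of 87.9 in N642H and 27.3 in WT cells. Its STAT5B folds were 9.0 in N642H and 9.63 in WT cells with prednisolone, against 11.2 in N642H and 6.71 in WT cells without it. Both FKBP5 members were called in all 4 STAT5B lists.

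KLF9, another Krüppel-like factor and glucocorticoid target, had a member 4607 bp before its start (chr9:70418796-70420502), with NR3C1 folds of 77.6 in N642H and 41.1 in WT cells. The 2 NR3C1 summits lay 854 bp apart in this 1707 bp region, so the folds belong to different summits. STAT5B was called there in the N642H line only, at 11.3 with prednisolone and 10.1 without it. A member 24932 bp before the start of DDIT4, an inhibitor of mTORC1 signalling, whose nearest gene span was ANAPC16 (chr10:72248445-72249355), had NR3C1 folds of 77.9 in N642H and 43.3 in WT cells. STAT5B was called there at 6.95 in N642H and 7.97 in WT cells with prednisolone, against WT cells alone without it, at 4.62. The member at CXCR4, the receptor of the chemokine CXCL12, lay 18254 bp upstream (chr2:136136121-136137177) and had NR3C1 folds of 81.5 in N642H and 45.4 in WT cells. STAT5B was at 9.17 in N642H and 9.46 in WT cells with prednisolone, against 5.37 in N642H and 5.18 in WT cells without it. The STAT5B regions with and without prednisolone did not overlap there, so these folds belong to different places within the member. With prednisolone the STAT5B summits lay 20 bp in N642H and 32 bp in WT cells from the NR3C1 summit of N642H cells. Without it they lay 429 bp in N642H and 383 bp in WT cells from that summit.

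The member between HJV and TXNIP (chr1:146007095-146007607, 10786 bp from TXNIP, which encodes a thioredoxin-binding arrestin-like protein) differed most between the lines in receptor fold. NR3C1 had a fold of 92.1 with 216 fragments in N642H cells, against 9.28 with 15 fragments in WT cells. STAT5B was called there in N642H cells alone, at 10.1 with prednisolone and 9.18 without it. ZBTB16, a transcription factor gene induced by glucocorticoids in many cell types, had a member inside it with NR3C1 folds of 46.3 in N642H and 28.2 in WT cells, and SMAP2 one with 43.5 in N642H and 36.2 in WT cells; at both, STAT5B was called in WT cells with prednisolone and in untreated N642H cells. The remaining strongest members lay inside TG, with NR3C1 folds of 47.9 in N642H and 18.7 in WT cells, and 2045 bp from RAP1B, with 44.5 in N642H and 25.8 in WT cells.

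Among genes known as STAT5 targets, 3 of 30 listed were linked to a member, that is, had a member's summit inside the gene or within 20 kb. CCND3, the cyclin D3 that early T cells need to divide, had 2. The stronger (chr6:42045587-42046201, 2813 bp downstream of the start) had NR3C1 folds of 92.1 in N642H and 39.8 in WT cells, with STAT5B at 7.86 in N642H and 8.25 in WT cells with prednisolone, against 9.87 in N642H and 6.64 in WT cells without it. The weaker, at chr6:42010269-42010703, had NR3C1 folds of 8.07 in N642H and 7.21 in WT cells and was called for STAT5B without prednisolone only, at 12.4 in N642H and 7.29 in WT cells. The member inside ARID3B (chr15:74546214-74546673), a DNA-binding protein gene, held the highest untreated STAT5B fold of all members, 33.3 in N642H cells, with 12.4 in WT cells; with prednisolone STAT5B was at 8.99 in N642H and 14.9 in WT cells, and NR3C1 at 18.6 in N642H and 4.5 in WT cells.

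BCL2L1, which encodes the survival protein BCLXL named in the study's title, had 1 member inside its span (chr20:31708311-31708613), near the low end of receptor signal. NR3C1 had a fold of 5.52 with 17 fragments in N642H cells and 7.27 in WT cells. STAT5B was called in WT cells with prednisolone at 7.07 and in untreated N642H cells at 13.2, and was not called in N642H cells with prednisolone or in untreated WT cells. It was the only one of 20 listed BCL2-family genes linked to a member.

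Of 30 listed T-lineage genes, 2 (6.67%) were linked to a member, NOTCH3 and CD3E, against 1.17% of all protein-coding genes. TRAC and TRBC2 were chosen after their values were seen. The member 4388 bp from TRAC, the constant segment of the T-cell receptor alpha chain (chr14:22556258-22556692, nearest other gene DAD1), had STAT5B folds of 11.4 in N642H and 10.8 in WT cells with prednisolone, against 19.5 in N642H and 15.2 in WT cells without it, and NR3C1 folds of 20.4 in N642H and 11.4 in WT cells. The interval between TRAC and DAD1 is known to hold the enhancer of the alpha locus. The member 6530 bp from TRBC2, the constant segment of the beta chain (chr7:142808788-142809387, nearest other gene PRSS2), had STAT5B folds of 6.74 in N642H and 9.30 in WT cells with prednisolone, against 9.08 in N642H and 9.41 in WT cells without it, and NR3C1 folds of 14.6 in N642H and 8.68 in WT cells. Both lay in all 4 STAT5B lists.

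NOTCH3, a Notch receptor of thymocytes, had a member inside it (chr19:15197470-15197952) with STAT5B at 7.68 in N642H and 8.56 in WT cells with prednisolone, against 14.4 in N642H and 10.4 in WT cells without it. CD3E, a chain of the T-cell receptor complex, had one 691 bp from its span with NR3C1 folds of 7.84 in N642H and 4.51 in WT cells. STAT3, the 1 of 20 listed interleukin-7 receptor and JAK-STAT genes linked to a member, had a 141 bp region 319 bp before its start (chr17:42388738-42388878), where STAT5B had 7.07 in N642H and 7.41 in WT cells with prednisolone, against 7.73 in N642H and 11.3 in WT cells without it. NR3C1 had 8.07 in N642H and 5.42 in WT cells there. No gene of that list was linked with the summit inside the region, a −log10 q of at least 5, or equal list lengths. DUSP2, a phosphatase that removes phosphate from MAP kinases, had 2 members upstream, at 18448 bp with NR3C1 folds of 43.5 in N642H and 29.0 in WT cells, and at 1038 bp with 6.41 in N642H and 6.55 in WT cells. The farther DUSP2 member had the higher receptor fold of the pair and the lower untreated STAT5B folds, 6.08 in N642H and 6.42 in WT cells, against 7.87 in N642H and 7.21 in WT cells at the nearer one.

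Other members were found in all 4 STAT5B lists and were among the strongest of those for NR3C1. Their nearest genes were RPS6KA1 (NR3C1 32.0 in N642H, 22.0 in WT cells), FOS (21.5 in N642H, 8.71 in WT), GSDMC (20.2 in N642H, 9.87 in WT, 537278 bp away) and ZKSCAN2 (19.1 in N642H, 9.28 in WT). Of these, RPS6KA1, a kinase of the MAP kinase pathway 46003 bp from its member, had the highest STAT5B fold, 23.8 in untreated N642H cells. The remaining listed genes with a member were BTG2, IRS2 and ZFP36, all known glucocorticoid targets, with NR3C1 folds of 9.62 in N642H and 10.4 in WT cells at BTG2, 12.8 in N642H and 6.55 in WT cells at IRS2, and 6.83 in N642H and 5.42 in WT cells at ZFP36.

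In total 18 of the 200 listed genes, 9%, were linked to a member, against 1.17% of all 19378 protein-coding genes. Of the lists, the glucocorticoid response list had 10 of 32 genes linked, T-lineage genes 2 of 30, kinase feedback and growth genes 1 of 20, highly expressed promoters 1 of 24, and markers of other blood cell types and of non-blood tissues 0 of 16 each. These are counts only: the lists were put together with earlier results of these data known.

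The remaining lists give whether STAT5B was also called at these sites in cells with prednisolone, and in which line. With prednisolone a STAT5B region lay at 49 of 231 members in N642H cells, 21.2% (95% interval 16.1 to 27.1), against 16 of 656 regions of both lines without untreated STAT5B, 2.44% (1.40 to 3.93); the share over all 2888 NR3C1 regions of N642H cells was 7.76%. In WT cells it lay at 94 of 231 members, 40.7% (34.3 to 47.3), against 32 of 656, 4.88% (3.36 to 6.82), with 9.04% over all regions. In N642H cells the odds ratio was 10.8 (adjusted p = 2.03e-17, two-sided Fisher's exact test). In WT cells it was 13.4 (adjusted p = 6.74e-35, same test, exact). Adjustment was by Benjamini-Hochberg over the 8 tests made, and the tests compare regions of these libraries, not conditions. Untreated STAT5B of the same lines set these groups of regions apart, so a higher treated share at the members was likely from the grouping alone. These odds ratios do not measure whether STAT5B stayed at a site.

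**Figure D2:**
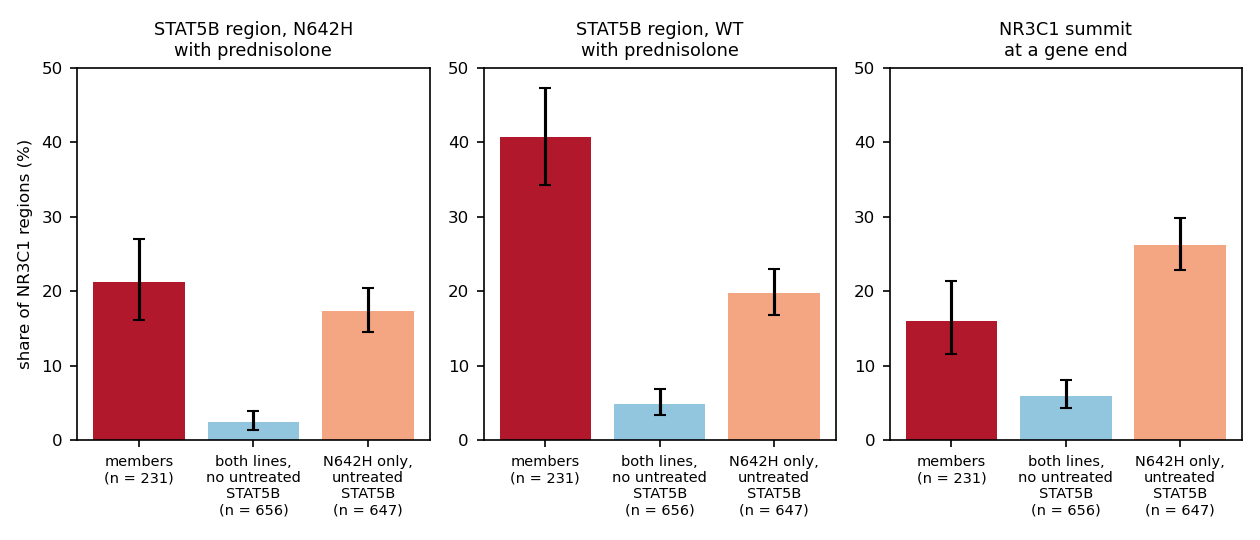
Share of NR3C1 regions (percent) with a STAT5B region in N642H cells with prednisolone, with one in WT cells with prednisolone, and with the summit within 1 kb of a gene end, for the 231 members, 656 regions of both lines without untreated STAT5B and 647 regions of N642H cells alone with untreated STAT5B; bars are shares and whiskers exact 95% binomial intervals. The member bars reach 21.2%, 40.7% and 16.0%.

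Against the 647 NR3C1 regions that had untreated STAT5B but were called in N642H cells alone, a comparison added after the lists had been seen, each line was tested on its own, and the difference between the lines was not tested. In N642H cells with prednisolone the shares were 21.2% and 112 of 647, 17.3% (14.5 to 20.5); the odds ratio was 1.29 (adjusted p = 0.198, two-sided Fisher's exact test), and it was below 1 with 50% overlap (0.893) and with lists of equal length (0.778). In WT cells with prednisolone STAT5B was more frequent at the members, 40.7% against 128 of 647, 19.8% (16.8 to 23.1); the odds ratio was 2.78 (adjusted p = 3.45e-09, two-sided Fisher's exact test). That call was lost when 50% of both regions had to overlap, with an odds ratio of 1.72 (adjusted p = 0.0852, two-sided Fisher's exact test). The WT NR3C1 list was used to separate these groups of regions, and it comes from the same treated WT cells as that STAT5B list. The groups also differed in untreated WT STAT5B, called at 147 of 231 members against 285 of the 647 regions. Median width was 342 bp at the members against 214 bp at those regions, and wider regions overlap more by construction. The part of these differences in the odds ratio was not tested.

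The difference from regions without untreated STAT5B was present at every level of receptor signal. Untreated STAT5B set the groups apart within each level too, so a higher treated share was likely there from the grouping alone. The splits below cannot separate that part. With all 887 shared regions cut into 3 groups of like size by NR3C1 −log10 q, STAT5B lay in N642H cells with prednisolone at 14 of 95 members against 1 of 201 other regions in the weakest group, at 15 of 76 against 1 of 219 in the middle group and at 20 of 60 against 14 of 236 in the strongest. In WT cells with prednisolone it lay at 35 of 95 members against 6 of 201 other regions in the weakest group, at 30 of 76 members against 2 of 219 in the middle one and at 29 of 60 members against 24 of 236 in the strongest. Members were wider, with a median of 342 bp against 270 bp, and wider regions overlap more by construction; within 3 such groups by width the Mantel-Haenszel odds ratio was 6.93 in N642H cells and 9.39 in WT cells. Within the groups by receptor signal it was 15 in N642H and 16.3 in WT cells, and within gene ends and elsewhere 10.1 in N642H and 12.6 in WT cells. The local background at the summit was also higher at the members, with a median of 1.36 fragments against 1.16, and stood at the genome-wide floor at 1.30% of members against 9.60% of the other regions; its part in the result was not tested.

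**Figure D3:**
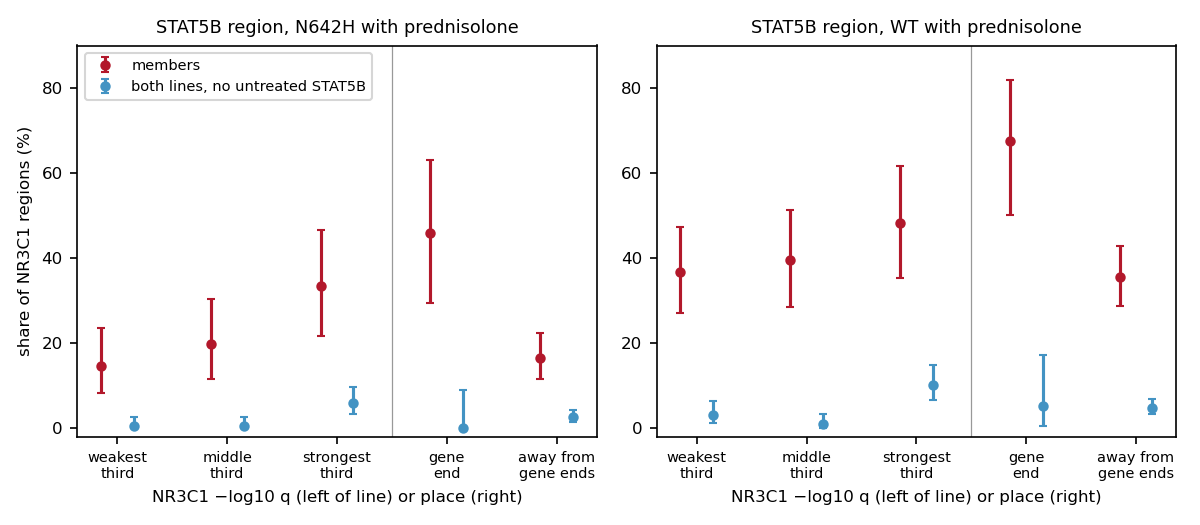
Share of regions (percent) with a STAT5B region in N642H cells (left) and WT cells (right) with prednisolone, by group of NR3C1 −log10 q (weakest, middle, strongest) and by place, for members and for NR3C1 regions of both lines without untreated STAT5B; points are shares and whiskers exact 95% binomial intervals. In all 5 strata of both panels the member share is the higher one, with 45.9% and 67.6% at gene ends. Untreated STAT5B set the groups apart, so this order was likely from the grouping alone.

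The members were also split by the untreated lines that held STAT5B. Of the 127 members with STAT5B in both untreated lines, 38 had it in N642H cells with prednisolone, 29.9% (22.1 to 38.7), and 79 in WT cells with prednisolone, 62.2% (53.2 to 70.7). Of the 84 members with STAT5B in untreated N642H cells alone, 9 had it in N642H cells with prednisolone, 10.7% (5.02 to 19.4), and 11 in WT cells, 13.1% (6.72 to 22.2). Of the 20 with STAT5B in untreated WT cells alone, 2 had it in N642H and 4 in WT cells with prednisolone. The differences between these classes of members were not tested. Over all members, STAT5B with prednisolone was called in both lines at 36, in N642H cells alone at 13, in WT cells alone at 58 and in neither at 124, or 53.7%.

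Within 1 line, the N642H STAT5B regions at members were 164 without prednisolone only, 47 in both conditions and 2 with prednisolone only. At the 47 the median STAT5B fold was 7.19 with prednisolone, against 9.44 without it. In the WT line 64 members had STAT5B without prednisolone only, 83 in both conditions and 11 with prednisolone only, and at the 83 the median fold was 8.14 with prednisolone, against 7.70 without it. The 2 members with STAT5B in N642H cells with prednisolone only were the KLF13 and ANAPC16 sites already given. The rule asked for untreated STAT5B, so a call with prednisolone only was possible at 20 members in N642H and 84 in WT cells. The imbalance between these counts is partly set by the rule and does not measure loss of STAT5B with prednisolone. Lists of unequal length limit these counts: STAT5B had 446 regions in N642H cells with prednisolone, against 4542 without it, and 766 in WT cells with prednisolone, against 2267 without it. With prednisolone the members met 52 of the 446, or 11.7%, and 95 of the 766, or 12.4%. Without it they met 213 of the 4542, or 4.69%, and 151 of the 2267, or 6.66%. The rule itself asked for the untreated overlaps, and the lists differ in length, so these shares are a description.

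The distance between the receptor and STAT5B summits was measured only where the 2 regions overlapped, so the overlap rule itself keeps it short, and no expected distance was computed. It had a median of 61 bp in N642H and 50.5 bp in WT cells for STAT5B with prednisolone, against 50 bp in N642H and 60 bp in WT cells without it, and it was at most 100 bp at 34 of 49 members in N642H and 76 of 94 in WT cells with prednisolone, against 166 of 211 in N642H and 107 of 147 in WT cells without it. The summits of NR3C1 itself in the N642H and WT lines were 32 bp apart at the median, and no more than 100 bp at 206 of 231 members.

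**Figure D4:**
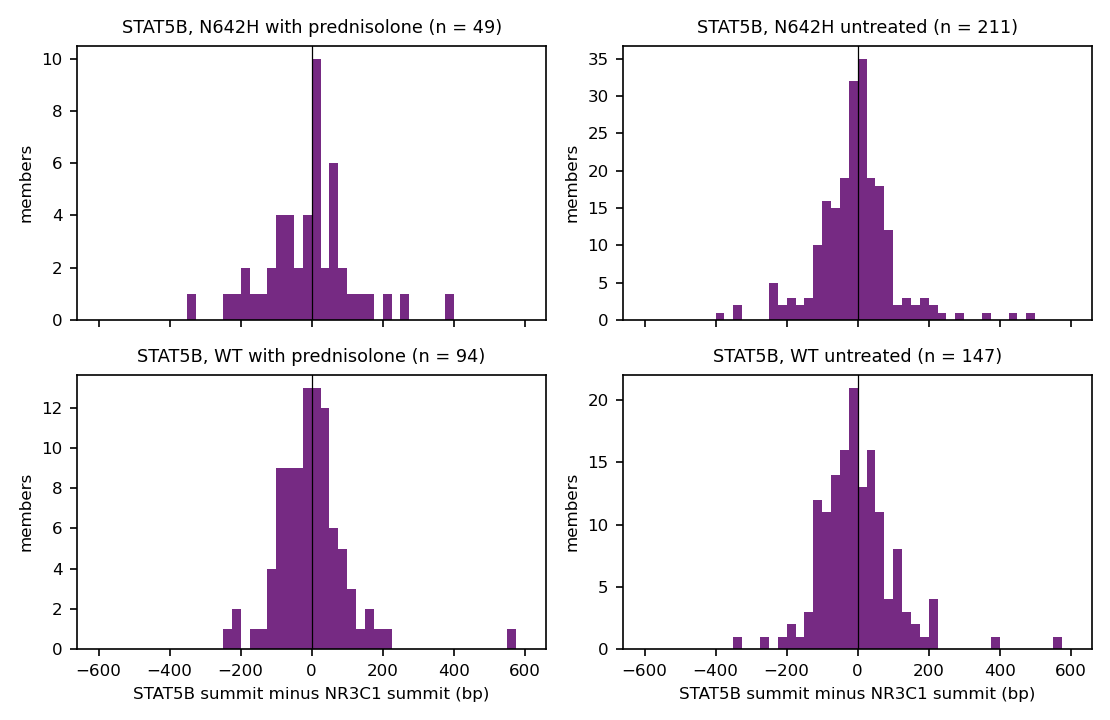
Number of members by the position of the STAT5B summit minus the NR3C1 summit of N642H cells (bp, bins of 25 bp), for the 4 STAT5B libraries, with the line at 0 marking the receptor summit. Only overlapping regions are plotted, which by itself places the counts around 0; the medians of the absolute distance lie between 50 and 61 bp.

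Gene ends were more frequent among the members than among the other shared receptor regions. The summit lay within 1 kb of an end of a protein-coding gene at 37 of 231 members, 16.0% (11.5 to 21.4), against 39 of 656, 5.95% (4.26 to 8.04), and 11.8% of all 2888 regions; the odds ratio was 3.02 (two-sided Fisher's exact test, adjusted p = 1.73e-05). It was less frequent than among the 647 N642H-only regions with untreated STAT5B, of which 170 or 26.3% (22.9 to 29.8) lay at gene ends; that odds ratio was 0.535 (two-sided Fisher's exact test, adjusted p = 0.00245), and with lists of equal length it turned to 2.12, 12.5% of members against 6.32% (two-sided Fisher's exact test, adjusted p = 0.266). At 27 of the 37 a listed start site lay within 1 kb, and 30 of the 37 had STAT5B in both untreated lines. STAT5B with prednisolone was called at 17 of the 37 in N642H cells and 25 of the 37 in WT cells, against 32 in N642H and 69 in WT cells of the 194 members away from gene ends. The NR3C1 fold in N642H cells had a median of 9.97 at gene ends, against 12.2 elsewhere.

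Summits inside a protein-coding gene, exons and introns together, made up 101 of 231 members, 43.7% (37.2 to 50.4), against 341 of 656, 52.0% (48.1 to 55.9), and 50.7% of all regions; the odds ratio was 0.718 (two-sided Fisher's exact test, adjusted p = 0.0431). That call was lost under 5 of the 7 other settings tried, with adjusted p from 0.0516 to 0.457. Against the 647 N642H-only regions, of which 317 or 49.0% lay inside a gene, the odds ratio was 0.809 (two-sided Fisher's exact test, adjusted p = 0.198). A total of 163 members lay inside or within 20 kb of a protein-coding gene, 68 lay farther than 20 kb and 37 of these farther than 100 kb.

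The members fell on 22 chromosomes, led by chromosome 2 with 25 and chromosome 1 with 23, and 8 neighbouring pairs lay within 10 kb. They had 210 distinct nearest genes, of which 17 had more than 1 member. The genes described here were singled out after their values were seen. Among the 17 were TPTE, the nearest gene of 3 members, and OR11H1, the nearest gene of 2. The strongest TPTE member lay 1759207 bp from TPTE on chromosome 21. The OR11H1 members lay 3321355 bp and 2715773 bp from that gene on chromosome 22, both with STAT5B in untreated WT cells alone. MSI2, an RNA-binding protein gene of blood progenitors, had 3 members inside it with NR3C1 folds of 25.1 in N642H and 13.5 in WT cells, 16.5 in N642H and 8.38 in WT cells, and 8.89 in N642H and 12.6 in WT cells. BCL11B, a transcription factor needed for T-cell commitment, had 2 members 970639 bp and 958824 bp from its span, in a gene-poor stretch known to hold a distal T-cell enhancer. The second of these was in all 4 STAT5B lists, at 9.55 in N642H and 8.99 in WT cells with prednisolone, against 12.7 in N642H and 7.25 in WT cells without it.

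Receptor fold at the members was higher in the N642H library at 190 of 231, with a median N642H over WT ratio of 1.41 and a range of 0.357 to 9.93. These folds come from 1 library each with different local background and depth, so the median ratio carries no test. The ratio was above 2 at 31 members and below 0.5 at 2. After the TXNIP site, the highest ratios, named after their values were seen, were at CD55 (NR3C1 41.3 in N642H, 6.04 in WT cells), CELF2 (42.1 in N642H, 6.31 in WT) and TSHR (31.7 in N642H, 6.0 in WT). Next was a member 118182 bp from POU3F3 (16.8 in N642H, 3.74 in WT). The lowest were 28904 bp from GRAPL (4.17 in N642H, 11.7 in WT) and 36068 bp from EML4 (4.27 in N642H, 9.58 in WT).

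**Figure D5:**
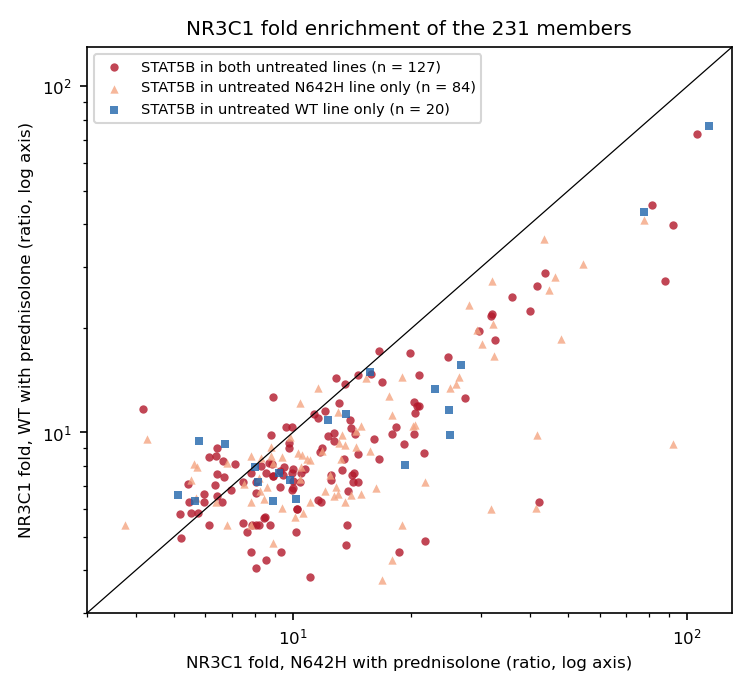
NR3C1 fold enrichment (ratio, log axes) in N642H cells with prednisolone (horizontal) and in WT cells with prednisolone (vertical) at the 231 members, marked by the untreated STAT5B lists that hold them; the line marks equal folds. Of the members 190 lie below the line, and the 3 classes of untreated STAT5B overlap.

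The order of members by NR3C1 fold was moderately shared between the lines, with a Spearman rho of 0.605 over the 231 members. The order by untreated STAT5B fold was less shared, with a rho of 0.370 over the 127 members called in both lines. Between NR3C1 fold and untreated STAT5B fold rho was 0.016 over 211 members in N642H cells and −0.169 over 147 in WT cells. These correlations run across regions, whose folds share a library and its local background, and are given as a description.

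At the border of the rule, the member with the smallest overlap was inside AMZ1, where 7 bp were shared and the NR3C1 fold in N642H cells was 5.16; ABTB2 followed with 27 bp and LCT with 35 bp. The nearest regions just outside had STAT5B but a gap to the WT NR3C1 region. They lay 572656 bp from UQCRFS1 with a gap of 2 bp and a fold of 6.32, 190 bp from GABPB2 with a gap of 17 bp, and 2063 bp from MON2 with a gap of 28 bp. The smaller of a member's 2 overlaps had a median of 161 bp and was under 20 bp at 1 member.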

How the data were processed

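Each of the 8 ChIP libraries of the series was deposited as 1 list of called regions; the 4 input libraries were not used here. BWA, MACS2, deepTools and hg38 are named in the submitters' processing notes, with roles and versions not given in the sources used here. The deposited columns are the span, a score, a fold enrichment (ratio), −log10 p and −log10 q, and the summit offset in bp, all as the authors made them; no p-value of a region was recomputed. Region depth was recovered by solving the deposited fold and −log10 p for pileup and local background; all regions of the 6 lists used gave whole pileups within 0.02. The recovery was tested on simulated regions. These were weaker than the strongest members, so the largest fragment counts lay outside that test.

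Members and gene lists were chosen with earlier results of these data known. Coordinates are on hg38, counted from 1. Overlap meant at least 1 shared bp, on chromosomes 1 to 22, X and Y; 2 of 34 regions on other sequences also met the rule and were left out. Gene names and spans came from RefSeq (GRCh38.p14, 19378 named protein-coding genes), which gave no exons. Shares have exact Clopper-Pearson intervals, and 8 two-sided Fisher's exact tests were adjusted by the Benjamini-Hochberg method. Depth is given as fragments at the summit, since library totals were not used here. The genes named were those nearest to the 12 strongest members, to the 12 strongest in all 4 STAT5B lists and to the members at the border of the rule, and every listed gene linked to a member; DDIT4, TRAC, TRBC2 and those so marked in the text were chosen after their values were seen. One gene that this rule names is not reported here. Alternatives were an overlap of at least 50% of both regions, summit inside the region, −log10 q or fold of at least 5, equal list lengths, no high-background regions (local background at least 10 times the genome's), links within 5 or 50 kb, and, added after seeing the data, summits no more than 200 bp apart and Mantel-Haenszel strata. Python 3.11.15 with numpy 2.4.6, pandas 2.3.3, scipy 1.17.1, statsmodels 0.14.6 and matplotlib 3.10.9 was used.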

Additional observations from a re-analysis of the deposited data

How the results depend on the processing

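The shares of members with STAT5B in prednisolone-treated N642H and WT cells and at gene ends, set against NR3C1 regions of both lines without untreated STAT5B, kept their direction and their side of the threshold under every alternative tried. For the treated STAT5B shares, that direction was likely from the grouping by untreated STAT5B alone. The number of members was 106 when 50% of both regions had to overlap and 120 with lists of equal length, against 231. Listed genes linked to a member numbered 9 with 50% overlap and 28 with links within 50 kb, against 18. Against NR3C1 regions of N642H cells alone with untreated STAT5B, the odds ratio for STAT5B in treated N642H cells was below 1 with 50% overlap (0.893, Fisher's exact test, adjusted p = 0.862) and with equal lengths (0.778, Fisher's exact test, adjusted p = 0.457), and that for gene ends was above 1 with equal lengths (2.12, Fisher's exact test, adjusted p = 0.266). The odds ratio for STAT5B in treated WT cells in that comparison lost its call with 50% overlap (1.72, Fisher's exact test, adjusted p = 0.0852). The cause was not tested. Of the 34 named members, 15 were members with 50% overlap and 26 with equal lengths.

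No paired analysis was possible because each group had 1 library, and leaving out a library leaves no group. A region that is not called may be present below the threshold: the median region at a member held 12 fragments in treated N642H and 18 in treated WT STAT5B lists. The planned searches for STAT and receptor motifs over all regions were not run.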
